A study of Drosophila melanogaster with 12 samples.

Results

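The genes su(Hw), mod(mdg4) and Cp190 encode the protein core of the gypsy insulator of Drosophila melanogaster, and their transcripts were followed in testes of su(Hw) null and wild-type males. Every probe set of the array whose only gene symbol was one of these 3 genes was taken, which gave 24 of the 18769 probe sets other than controls, for 3 of 11982 genes with a probe set of their own. The gene su(Hw) had 1 probe set, mod(mdg4) had 22 and Cp190 had 1. All 3 genes lie on chromosome arm 3R in RefSeq's annotation (Release 6 plus ISO1 MT). The sources used here do not say which exon or isoform a probe set covers, so the probe sets are named by their identifiers on the array.

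Testes of 3-day-old males were measured on 12 Affymetrix Drosophila Genome 2.0 arrays, with 3 arrays for each of 4 genotypes. The 2/v males had su(Hw)[2] over su(Hw)[v] and carried y[1], w[67c23], ct[6] and f[1]. The A2663/2 males had su(Hw)[A2663] over su(Hw)[2] and carried y[1], w[67c23] and the P element insertion P{EPgy2}Amt[EY02782]. The BL15598 males had wild-type su(Hw) with y[1], w[67c23] and the same insertion, and the Canton S males were a wild-type stock with no further allele named. Both nulls therefore carry allele 2, the Amt insertion is shared by A2663/2 and BL15598, and the ct and f alleles are in 2/v alone. Other differences between the stocks are not named, including on the chromosome arm that su(Hw) and mod(mdg4) share. They cannot be told apart from loss of su(Hw). Flies were raised at 25°C, and each RNA came from about 100 pairs of testes of 1 genotype, which the labels call biological replicates. The series' design text sets the 2 nulls against the 2 wild types. A mean over 2 genotypes rests on only 2 stocks a side. In the main fit of 4 genotype means, p-values measure the spread between arrays of 1 genotype.

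Insulators are DNA elements that keep an enhancer from acting on a promoter on their far side. The zinc finger protein Su(Hw) binds the insulator of the gypsy retrotransposon, where it recruits the BTB-domain proteins Mod(mdg4) and Cp190. It also binds many sites without gypsy. Flies without Su(Hw) lose the gypsy insulator, and mutant phenotypes caused by gypsy insertions, such as those of ct[6] and f[1], are suppressed. The mod(mdg4) locus makes many proteins with 1 common amino-terminal part and different carboxy-terminal parts, joined by trans-splicing. The Mod(mdg4)67.2 form is the partner of Su(Hw), and another form, MNM, is needed in male meiosis for homologous chromosomes to stay paired. RefSeq lists 31 transcripts for mod(mdg4), against 3 for su(Hw) and 2 for Cp190.

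Signals are the deposited linear intensities. Array medians ran from 194 to 246 units, and the 183 control probe sets had a median of 20.4 units. Of 288 member values, 2 lay below that level. Of 10 testis germline markers, 9 were measured and none was below the control level on any array, with a summed signal of 80500 to 117000 units. Changes are differences of mean log2 signal in 1 limma fit of all 12 arrays, and calls were made where the p adjusted over the 18769 probe sets was under 0.05. Null against wild type, 13.5% of all probe sets were called, with 8.87% higher and 4.6% lower. Among the 24 member probe sets 7 were called, 4 higher and 3 lower. Of the 9 measured germline markers 2 were called higher and 0 lower. In BL15598 against Canton S, 1 germline marker was called higher and 1 lower, with 9.58% of all probe sets called. Fewer cells of a type and less RNA per cell cannot be told apart in RNA of whole testes.

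The su(Hw) transcript was the member with the greatest change, and it was lower in every null array. The su(Hw) probe set, 1631004_s_at, read 38.7, 19.2 and 70.0 units in 2/v and 64.0, 56.7 and 89.6 units in A2663/2. It read 1410, 1544 and 1223 units in BL15598 and 864, 885 and 1205 units in Canton S. No null array came near a wild-type array, and a single 2/v array lay under the median of the control probe sets. The signal was 22.9-fold lower in the nulls than in the wild types (log2 -4.52, SE 0.283, 95% interval -5.16 to -3.88, adjusted p = 1.04e-05).

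Each null was low against each wild type. The fold was 20.1 in A2663/2 against BL15598 (adjusted p = 0.000191) and 26.1 in 2/v against Canton S (adjusted p = 8.4e-05). These 2 comparisons share no arrays, but they share the fit's estimate of spread. The fold was 14.2 in A2663/2 against Canton S and 37.1 in 2/v against BL15598. Both nulls overlapped each other, with a difference of log2 -0.88 in 2/v against A2663/2 (adjusted p = 0.581). In order of level, 2/v was lowest, then A2663/2, then Canton S, with BL15598 highest. All 3 BL15598 arrays lay above the 3 Canton S arrays, but this difference did not pass the test (log2 0.51, 95% interval -0.39 to 1.41, adjusted p = 0.53). The sources used here do not place the probes against the lesions of the alleles, so the remaining signal in the nulls says nothing about protein.

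Cp190 encodes a BTB and zinc finger protein that joins several kinds of insulator. Its probe set, 1631940_s_at, read 749.5, 865 and 1116 units in 2/v and 732, 932 and 822 units in A2663/2. It read 968, 829 and 863 units in BL15598 and 812, 862 and 845 units in Canton S. All 4 genotypes overlapped, and the lowest and the highest array were both nulls. The change was log2 -0.003 null against wild type (SE 0.111, adjusted p = 0.995), with a 95% interval of -0.25 to 0.25, or 0.84- to 1.19-fold. Cp190 was called in none of the 8 comparisons, and its smallest adjusted p over them was 0.75, for the difference of the 2 null effects. The plot of signals shows it beside su(Hw) and the brightest mod(mdg4) probe set.

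**Figure D1:**
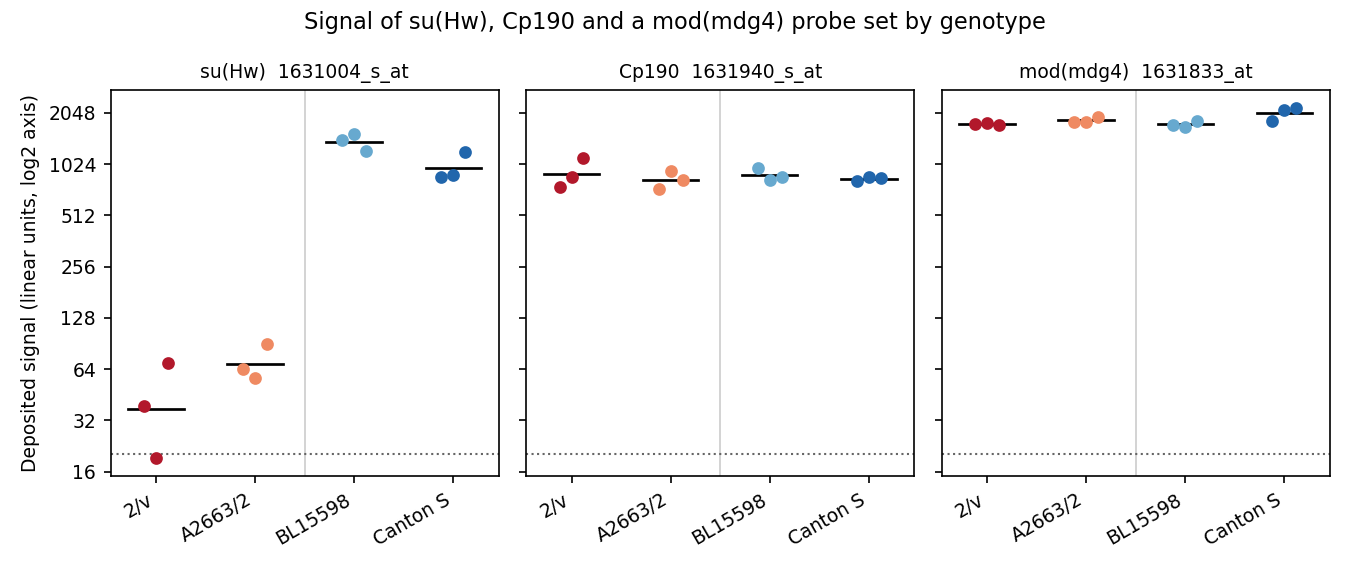
Deposited signal of su(Hw), Cp190 and the brightest mod(mdg4) probe set on each of the 12 arrays by genotype, in linear units on a log2 axis. Points are arrays, bars are geometric means of 3 arrays and the dotted line is the control median of 20.4 units. The su(Hw) arrays of both nulls lie between 19.2 and 89.6 units and those of both wild types between 864 and 1544 units, while the Cp190 arrays lie between 732 and 1116 units and the mod(mdg4) arrays between 1690 and 2185 units.

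The 22 mod(mdg4) probe sets did not move as 1 unit. Null against wild type, 4 were called higher, 2 were called lower and 16 did not pass the test, so 27.3% of them were called, against 13.5% of all probe sets. At an unadjusted p under 0.05 there were 8 higher and 4 lower. The share of all probe sets at that level was not counted, here or for later counts at an unadjusted p. The median change over the 22 was log2 0.02, against 0.05 over all probe sets, with 11 above 0 and 11 below. Single changes ran from log2 -0.92 to 2.21. The SD between arrays of 1 genotype was 0.0797 to 0.707 log2 units over these probe sets, with a median of 0.229. The plot of changes with their intervals shows the 24 member probe sets in order.

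**Figure D2:**
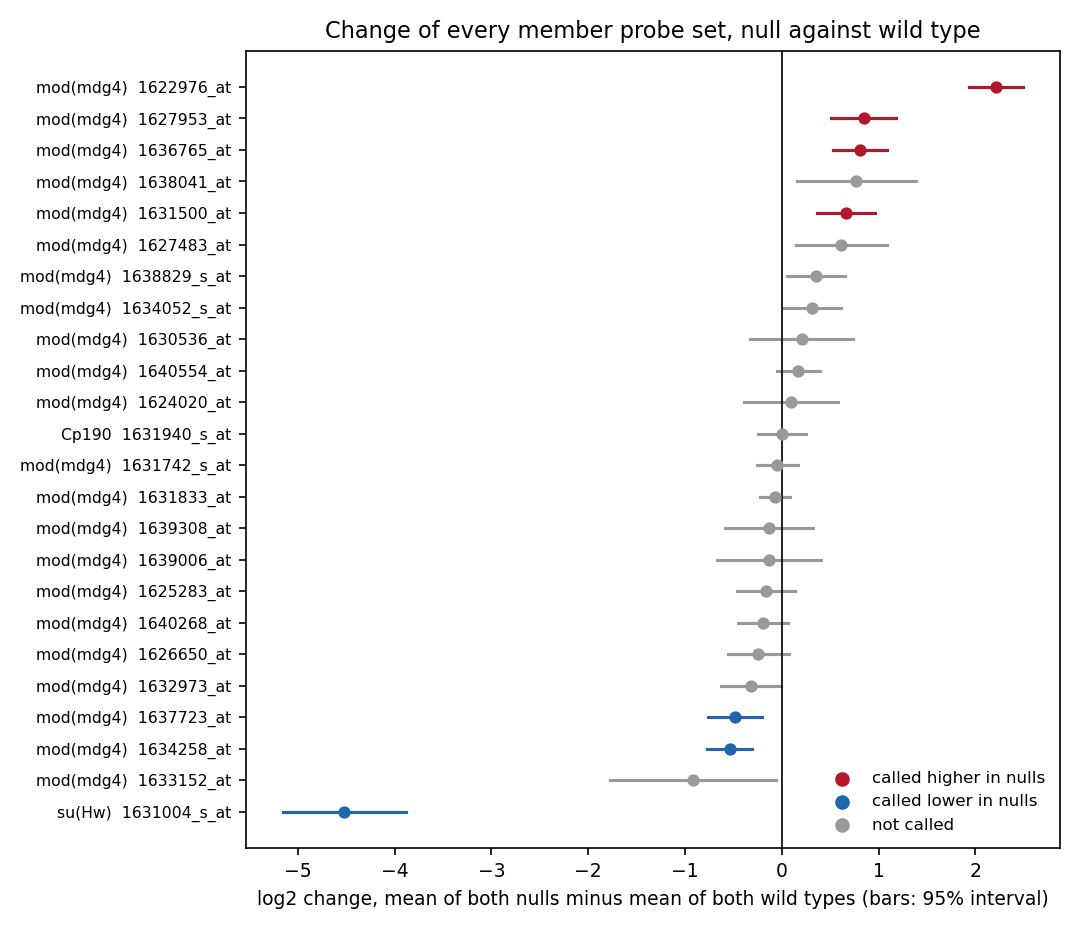
Log2 change of each of the 24 member probe sets, the mean of both nulls minus the mean of both wild types, with 95% intervals from the limma fit of 12 arrays. Red points were called higher, blue points were called lower and grey points did not pass an adjusted p of 0.05; su(Hw) stands alone at -4.52 and the mod(mdg4) probe set 1622976_at at 2.21.

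The probe set 1622976_at carried the largest mod(mdg4) difference. It read 448, 454 and 415 units in 2/v and 351, 289 and 323 units in A2663/2. It read 101, 86.0 and 81.2 units in BL15598 and 55.9, 88.4 and 81.6 units in Canton S. All null arrays lay far above all wild-type arrays, the 2/v arrays all lay above the A2663/2 arrays, and both wild types overlapped. The signal was 4.62-fold higher in the nulls (log2 2.21, SE 0.124, adjusted p = 5.9e-06). It was called in each of the 4 null and wild-type pairs, from 3.60-fold in A2663/2 against BL15598 (adjusted p = 0.000218) to 5.94-fold in 2/v against Canton S (adjusted p = 2.7e-05). It was the only mod(mdg4) probe set called the same way in all 4 pairs, a pattern shown by 2.05% of all probe sets. The 2/v arrays were 1.37-fold above the A2663/2 arrays, which did not pass the test (adjusted p = 0.462), and the difference of the 2 null effects, log2 0.72, did not pass it either (adjusted p = 0.171).

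The other probe sets called higher changed by less than 2-fold. The probe set 1627953_at read 605, 611 and 420.2 units in 2/v, 396, 400.3 and 378 units in A2663/2, 197, 229.5 and 236 units in BL15598, and 217, 372 and 322 units in Canton S. Null and wild-type arrays did not overlap, although the highest Canton S array came close to the lowest A2663/2 array. The signal was 1.80-fold higher in the nulls (log2 0.84, SE 0.151, adjusted p = 0.00521). It was called in 3 of 4 pairs and not in A2663/2 against Canton S (log2 0.40, adjusted p = 0.329). The call in A2663/2 against BL15598 was narrow (adjusted p = 0.0499) and was lost under median centring of the arrays (adjusted p = 0.105) and quantile normalization (0.080), and without any 1 of 9 arrays, which were all but 2/v replicate 3 and Canton S replicates 1 and 2. That in 2/v against Canton S was lost under centring (adjusted p = 0.0949), quantile normalization (0.0529) and with the compared arrays alone (0.148), and without 2/v replicate 1 or 2, A2663/2 replicate 1 or 3, or Canton S replicate 1 or 3 (adjusted p up to 0.110).

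The probe set 1636765_at read 288, 334 and 332 units in 2/v, 269, 214 and 306 units in A2663/2, 129.6, 135 and 148 units in BL15598, and 244, 165 and 186 units in Canton S. The nulls overlapped Canton S but not BL15598, and all Canton S arrays lay above all BL15598 arrays. The signal was 1.75-fold higher in the nulls (log2 0.81, SE 0.125, adjusted p = 0.00223) and was called in 3 of 4 pairs, again not in A2663/2 against Canton S (adjusted p = 0.209). The call in 2/v against Canton S was lost under centring (adjusted p = 0.129), quantile normalization (0.111) and with the compared arrays alone (0.0997), and without any 2/v replicate, A2663/2 replicate 1, BL15598 replicate 2, or Canton S replicate 2 or 3 (adjusted p up to 0.116). That in A2663/2 against BL15598 was lost with the compared arrays alone (adjusted p = 0.0594) and without A2663/2 replicate 1 or 3.

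The probe set 1631500_at read 636, 580.3 and 654 units in 2/v, 552, 616 and 502 units in A2663/2, 414, 342 and 445 units in BL15598, and 292, 305 and 464 units in Canton S. Every null array was above every wild-type array, while both nulls overlapped each other and both wild types did too. The signal was 1.58-fold higher in the nulls (log2 0.66, SE 0.133, adjusted p = 0.00913). Taken by pair it was called in 2/v against Canton S alone (log2 0.85, adjusted p = 0.0183), with adjusted p of 0.0527 to 0.19 in the other 3 pairs. That pair's call was lost under centring (adjusted p = 0.0767), with the compared arrays alone (0.0889), and without 2/v replicate 1 or 3 or Canton S replicate 1 or 2, while 5 alternatives added a call in each crossed pair (adjusted p of 0.0137 to 0.0492).

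Of the probe sets called lower, 1634258_at read 383, 367 and 429.8 units in 2/v, 534, 487 and 501 units in A2663/2, 703, 480.4 and 569 units in BL15598, and 789, 670.0 and 734 units in Canton S. The 2/v arrays were the lowest and the Canton S arrays lay above all null arrays, while A2663/2 and BL15598 overlapped. The signal was 1.45-fold lower in the nulls (log2 -0.54, SE 0.103, adjusted p = 0.00751). It was called lower in 2/v against both Canton S (adjusted p = 0.00392) and BL15598 (adjusted p = 0.0401), and not in A2663/2 against BL15598 (log2 -0.19, adjusted p = 0.548). The call against BL15598 was lost with array weights (adjusted p = 0.0542), with the compared arrays alone (0.168), and without any 1 of 10 arrays, which were all but BL15598 replicate 2 and Canton S replicate 1. In A2663/2 against Canton S it was not called, but it was under 6 alternatives (adjusted p of 0.0125 to 0.0455). The difference of the 2 null effects was log2 -0.71, the lowest adjusted p among members (0.105), and did not pass the test.

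The probe set 1637723_at read 593, 549.7 and 685 units in 2/v, 509.7, 579 and 668 units in A2663/2, 718, 758 and 827 units in BL15598, and 697, 1033 and 1023 units in Canton S. All null arrays lay below all wild-type arrays, by a narrow margin between the highest 2/v array and the lowest Canton S array. The signal was 1.40-fold lower in the nulls (log2 -0.48, SE 0.126, adjusted p = 0.0311), and no single pair passed the test. Under other settings 2 pairs did, A2663/2 against Canton S in 8 alternatives (adjusted p of 0.0154 to 0.0478) and 2/v against Canton S in 5 (0.0244 to 0.0422), and both without Canton S replicate 1. The call null against wild type was lost on leaving out any 1 of 8 arrays, which were replicates 1 and 2 of 2/v, 1 and 2 of A2663/2, 2 and 3 of BL15598 and 2 and 3 of Canton S, with adjusted p of 0.0611 to 0.0767. The values of the 6 called probe sets are plotted by array.

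**Figure D3:**
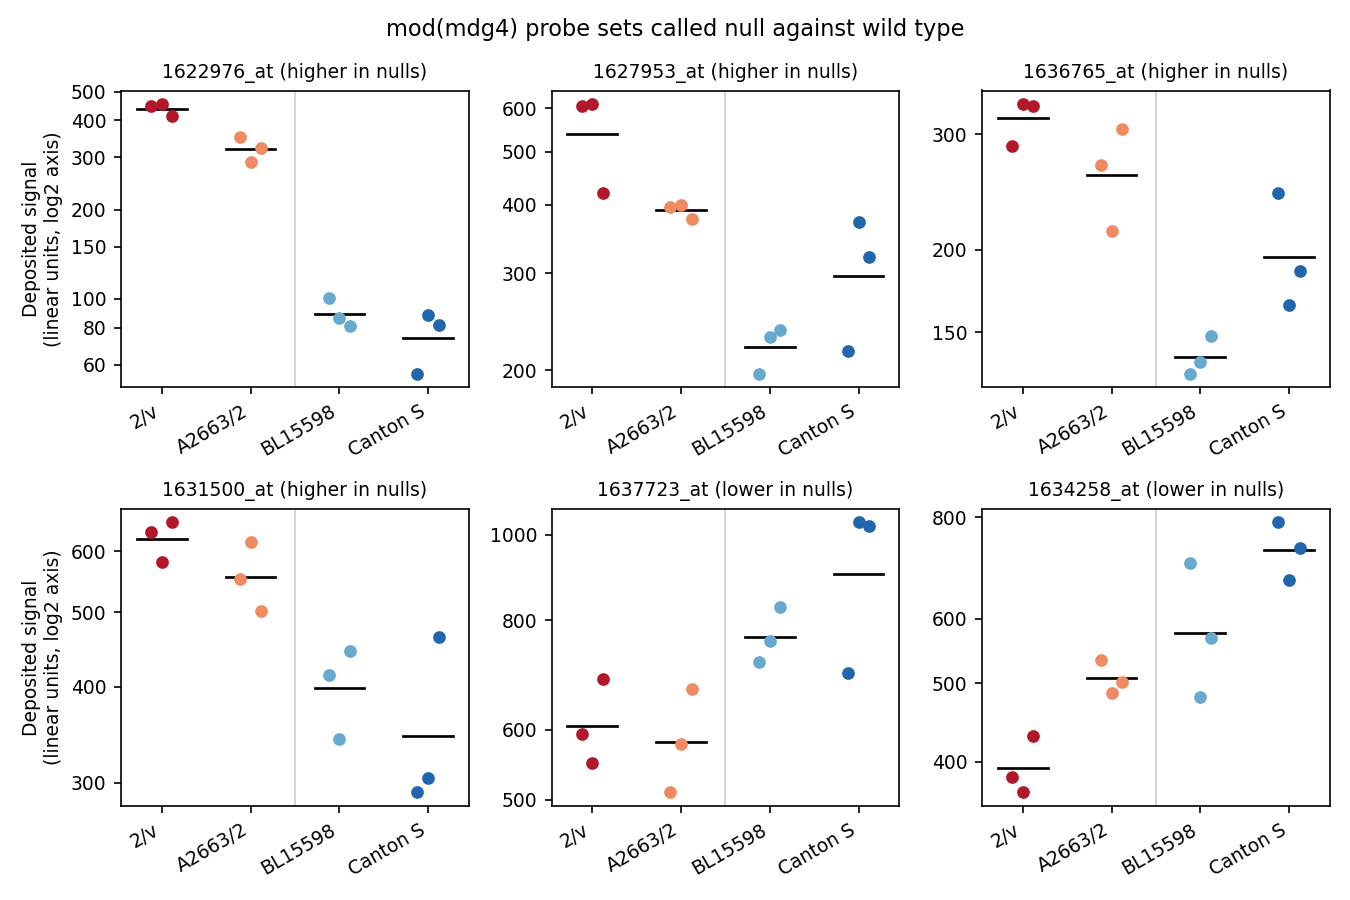
Deposited signal of the 6 mod(mdg4) probe sets called null against wild type, on each of the 12 arrays by genotype, in linear units on log2 axes that differ between panels and do not start at 0. Points are arrays and bars are geometric means of 3 arrays. Null and wild-type arrays do not overlap for 1622976_at, 1627953_at, 1631500_at and 1637723_at, and they overlap for 1636765_at and 1634258_at.

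For 4 of the 22 mod(mdg4) probe sets the 6 null arrays did not overlap the 6 wild-type arrays, 3 higher and 1 lower, against 6.41% of all probe sets. The sign of the change was positive in all 4 null and wild-type pairs for 6 probe sets, negative in all 4 for 5, and mixed for 11. The 4 pairs are made from only 4 genotype means, and the share of all probe sets with 1 sign in all 4 was not counted. A gene called in both directions by different probe sets was rare in these data. Of 1094 genes with at least 2 probe sets of 1 symbol, 14 had a called-higher and a called-lower probe set null against wild type. Among 50 genes with at least 5 such probe sets there were 5, namely Sarm, hts, lola, mod(mdg4) and pip. The only 3 genes with at least 10 were lola, mod(mdg4) and pip, and all 3 were called both ways.

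The brightest mod(mdg4) probe set, 1631833_at, was among those that did not pass the test. It read 1770, 1792 and 1729 units in 2/v, 1812, 1797 and 1947 units in A2663/2, 1739, 1690 and 1825 units in BL15598, and 1841, 2124 and 2185 units in Canton S. The arrays lay in a narrow range, with Canton S above BL15598 and 2/v. The change was log2 -0.07 null against wild type (95% interval -0.22 to 0.09, adjusted p = 0.616). Its interval excludes a change as large as that of any of the 6 called mod(mdg4) probe sets.

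Some probe sets with sizeable changes did not pass the test. The dim probe set 1633152_at read 52.1, 31.9 and 70.0 units in 2/v, 34.9, 10.6 and 56.9 units in A2663/2, 40.7, 53.0 and 39.6 units in BL15598, and 120.1, 122 and 89.1 units in Canton S. Canton S stood above the other 3 genotypes, which overlapped, and 1 A2663/2 array lay under the control median. Its change was log2 -0.92 (SE 0.381, adjusted p = 0.161). In A2663/2 against Canton S it narrowly did not pass (log2 -1.98, adjusted p = 0.0503). That pair passed in 5 alternatives (adjusted p of 0.0201 to 0.0424) and without A2663/2 replicate 3. The probe sets 1638041_at and 1627483_at had changes of log2 0.77 (adjusted p = 0.104) and 0.62 (adjusted p = 0.0882), each with 4 of 6 null arrays above all wild-type arrays. The remaining 12 uncalled probe sets changed by log2 -0.32 to 0.35.

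A further 3 probe sets carried the mod(mdg4) symbol together with another gene's and were not counted as members. Those named for mod(mdg4) and the pre-mod(mdg4)-Z and -T segments, from which trans-spliced 3′ exons come, changed by log2 -0.08 and 0.20 (adjusted p = 0.713 and 0.153). The one named for mod(mdg4) and CG6066 changed by log2 0.06 (adjusted p = 0.858).

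Ratios within an array do not depend on a factor that scales the whole array. Each of the other 21 mod(mdg4) probe sets was set against 1631833_at. The mean log2 ratio of the 6 null arrays was compared with that of the 6 wild-type arrays by a two-sided exact permutation test. It ran over 924 splits, so that 0.00216 is the smallest p possible. Genotype within a class is ignored, and arrays of 1 stock count as separate units, although each class has only 2 stocks. After Benjamini-Hochberg adjustment over the 21 ratios 7 passed, 5 higher and 2 lower, and without adjustment 8 had p under 0.05. The ratio of 1622976_at was 4.84-fold higher in the nulls (exact p = 0.00216, 6 of 6 null arrays above all wild-type arrays). The ratios of 1627953_at, 1636765_at and 1631500_at were 1.88-, 1.84- and 1.66-fold higher, and those of 1634258_at and 1637723_at were 1.39- and 1.34-fold lower, each with an exact p of 0.00433 or less. The seventh, that of 1627483_at, was 1.60-fold higher (exact p = 0.0108, adjusted p = 0.0325), and it did not pass on leaving out any 1 of 8 arrays (2/v replicate 1 or 3, any A2663/2 replicate, BL15598 replicate 2, or Canton S replicate 1 or 3), with adjusted p up to 0.0714. It did not pass after quantile normalization either (adjusted p = 0.096). Taken over the median of all mod(mdg4) probe sets, it had an adjusted p of 0.0884. With that denominator the exact test also passed 1632973_at (log2 -0.539, adjusted p = 0.0238) and 1626650_at (log2 -0.466, adjusted p = 0.037) as lower. It likewise passed 1640268_at (log2 -0.417, adjusted p = 0.0238) and 1631742_s_at (log2 -0.268, adjusted p = 0.0159) as lower. The balance of higher and lower ratios thus moved with the denominator. The ratio of 1631833_at to Cp190 differed by log2 -0.06 between nulls and wild types (exact p = 0.641).

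The 2 comparisons that share no arrays can be set side by side. A2663/2 and BL15598 share the named y and w alleles and the Amt insertion. In A2663/2 against BL15598, 6.83% of all probe sets were called, and 3 mod(mdg4) probe sets were, all higher (1622976_at, 1627953_at and 1636765_at). In 2/v against Canton S, whose backgrounds differ, 10.4% of all probe sets were called. There 5 mod(mdg4) probe sets were called higher and 1 lower, which were the 4 called higher null against wild type, 1634258_at and 1638829_s_at (log2 0.73, adjusted p = 0.0376). The call of 1638829_s_at was lost under centring, quantile normalization and with the compared arrays alone (adjusted p of 0.117 to 0.156), and without any 1 of 10 arrays, which were all but BL15598 replicate 3 and Canton S replicate 3. The last read 282, 284 and 305 units in 2/v, 251, 252 and 242 units in A2663/2, 242, 234 and 281 units in BL15598, and 168, 134 and 241 units in Canton S. Canton S was low and the A2663/2 arrays lay within the range of BL15598. The plot of both comparisons shows the 22 probe sets with their errors.

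**Figure D4:**
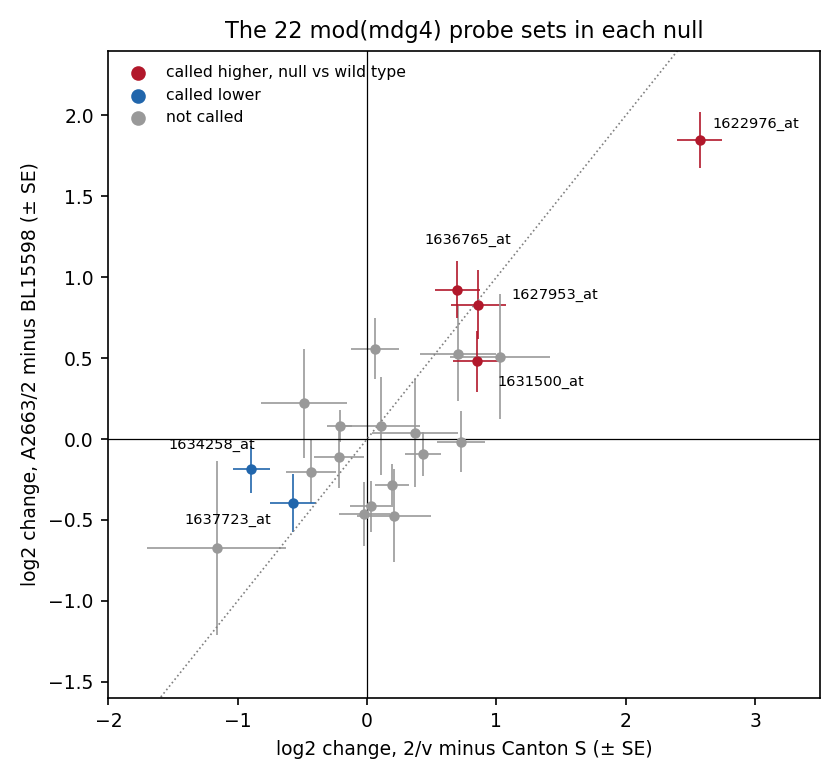
Log2 change of the 22 mod(mdg4) probe sets in 2/v minus Canton S on the horizontal axis and in A2663/2 minus BL15598 on the vertical axis, with standard errors from the limma fit; the dotted line marks equal changes. The probe set 1622976_at lies at 2.57 and 1.85, the other 3 called higher null against wild type lie between 0.48 and 0.92 on both axes, and the 2 called lower are below 0 on both axes.

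The crossed pairs reuse the same arrays. In 2/v against BL15598, 3 mod(mdg4) probe sets were called higher and 1 lower, with 10.6% of all probe sets called. In A2663/2 against Canton S only 1622976_at was called, with 9.21% of all probe sets called. The difference of the 2 null effects passed the test for no member, against 4.07% of all probe sets, and 5 members had an unadjusted p under 0.05. No alternative run turned the direction of a called member.

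The counts for the 2 nulls against Canton S moved with the scaling of the arrays. Centring each array on its median moved the median change of all probe sets null against wild type to log2 -0.12, against 0.05 as deposited, and quantile normalization moved it to -0.02. The share of all calls that were higher was 65.8% as deposited, 37.1% after centring and 52.1% after quantile normalization. The 7 members called null against wild type kept their calls under both, and centring added 1632973_at as lower. In 2/v against Canton S the members called were 5 higher and 2 lower as deposited, 1 and 3 after centring, and 2 and 2 after quantile normalization. In A2663/2 against Canton S they were 1 higher and 1 lower as deposited, and 1 and 4 under either alternative.

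The members were also compared within each class. Between the nulls, 2/v against A2663/2, limma called 0 members, against 0.927% of all probe sets. At an unadjusted p under 0.05 there were 3 members. The 3 and 3 arrays did not overlap for 8 of the 22 mod(mdg4) probe sets, 6 higher and 2 lower in 2/v, against 18.6% of all probe sets. Between the wild types, BL15598 against Canton S, limma called 0 members, against 9.58% of all probe sets. At an unadjusted p under 0.05 there were 8 members. There the arrays did not overlap for 6 of the 22, 2 higher and 4 lower in BL15598, against 25.0% of all probe sets.

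Among markers of neighbouring tissues, summed fat body signals did not overlap between the classes, while summed accessory gland signals did. Of 9 accessory gland genes all were measured, and their summed signal ran from 28200 to 71200 units in 2/v and 35000 to 66000 in A2663/2, against 15900 to 44100 in BL15598 and 15300 to 42600 in Canton S. All 9 changes were positive, with a median of log2 0.72. Of these genes 1, Sfp26Ad, was called, and 8 did not pass the test. The summed signal of 6 fat body genes was 1350 to 1780 units in 2/v and 964 to 1380 in A2663/2, against 608 to 763 in BL15598 and 522 to 642 in Canton S, and 4 of the 6 were called higher. Over all probe sets 8.87% were called higher and 4.6% lower. By geometric mean of wild-type and then null arrays, Obp99b read 70.0 and 438 units, Lsp2 248 and 413, Fbp1 24.9 and 130, and Fbp2 117 and 207. The other fat body genes, Yp1 (33.9 and 35.7) and Yp2 (106 and 103), hardly differed. Summed signals of 3 measured muscle genes (2430 to 3460 units) and 5 measured somatic testis genes (1100 to 2180 units) overlapped between classes, and 1 of the muscle genes, Tm2, was called lower. The part of other tissues in the mod(mdg4) results was not tested.

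Other proteins of the gypsy complex or known to bind with its members were taken as a list of 15 genes, of which 12 were measured and AGO2, rump and lwr had no probe set of their own. Null against wild type, 2 were called higher, 1 lower and 9 did not pass the test, with 6 at an unadjusted p under 0.05. Over all probe sets 13.5% were called, 8.87% higher and 4.6% lower. The median change of the list was log2 0.06, against 0.05 over all probe sets. Ibf1 and Ibf2 encode a pair of DNA-binding insulator factors that bind Cp190, and both were called higher. Ibf1 read 1476, 1394 and 1677 units in 2/v, 1501, 1673 and 1629 units in A2663/2, 1257, 1005 and 689 units in BL15598, and 991, 1104 and 1114 units in Canton S. All null arrays lay above all wild-type arrays (log2 0.62, adjusted p = 0.0155), although no single pair passed the test.

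For the other called genes of this list the stocks differed. Ibf2 ranged from 5650 to 6342 units in 2/v, 6242 to 7412 in A2663/2, 5603 to 7024 in BL15598 and 3648 to 4388 in Canton S. It was 1.33-fold higher in the nulls (adjusted p = 0.0169), but Canton S alone was low, and A2663/2 against BL15598 did not pass the test (log2 0.19, adjusted p = 0.485). HIPP1, named for binding HP1 and insulator proteins, was called lower (log2 -0.42, adjusted p = 0.0195). Its signals were 676 to 779 units in 2/v, 579.6 to 727 in A2663/2, 662 to 821 in BL15598 and 1100 to 1336 in Canton S, so that Canton S alone was high.

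CTCF, a zinc finger insulator protein, was not called null against wild type (log2 -0.22, adjusted p = 0.116). Its arrays read 506 to 620 units in 2/v, 635 to 710 in A2663/2, 919 to 969 in BL15598 and 483 to 577 in Canton S, with BL15598 alone high. It was called lower in both nulls against BL15598 and higher in BL15598 against Canton S (log2 0.84, adjusted p = 0.00137). Topors, a ubiquitin ligase, changed by log2 -0.28 (adjusted p = 0.065) and shep, which encodes an RNA-binding protein, by 0.28 (adjusted p = 0.142). A second list of 10 BTB or zinc finger architectural proteins had 8 measured genes, of which Elba2, a subunit of the ELBA insulator complex, was called higher (log2 0.61, adjusted p = 0.0168, 6 of 6 null arrays above all wild-type arrays). By their brightest probe sets the other 7 did not pass the test (13.5% of all probe sets were called), and the median of the 8 was log2 -0.07. Among these 7 is lola, of which other probe sets were called, some higher and some lower.

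The genes with gypsy insertions in 2/v were also measured. The f gene encodes an actin-bundling protein of bristles, and its probe set read 97.9, 88.0 and 80.7 units in 2/v, 134, 54.1 and 132 units in A2663/2, 36.9, 81.0 and 54.0 units in BL15598, and 3.60, 35.3 and 22.2 units in Canton S. Both nulls lay above Canton S and overlapped BL15598, and 1 Canton S array was under the control median. The geometric mean of Canton S was 14.1 units, below the control median of 20.4, so no size is given for a change that involves it. The difference null against wild type did not pass the test (adjusted p = 0.0599), while A2663/2 against Canton S was called higher (adjusted p = 0.048). A2663/2, which has no f allele named, overlapped 2/v (log2 -0.16 in 2/v against A2663/2, adjusted p = 0.988). The homeobox gene ct read 16.02 to 35.5 units in nulls and 17.5 to 35.8 in wild types, near the control median, and gets no fold.

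The measured genes next to the members in RefSeq were IFT54, trx, CG31321, aus, bap, Zip88E, CG14864 and CG4338. Of these, 1 was called null against wild type, where 13.5% of all probe sets were called. CG31321, the nearest measured gene on the higher-coordinate side of su(Hw), is separated from it by 1 gene with no probe set of its own. It read 444, 466 and 422 units in 2/v, 564, 633 and 546 units in A2663/2, 240.5, 153 and 229 units in BL15598, and 175, 118 and 164 units in Canton S. Each null array was above each wild-type array, and A2663/2 lay above 2/v. The signal was 2.90-fold higher in the nulls (log2 1.54, SE 0.141, adjusted p = 0.000102). It was called higher in each of the 4 pairs, and 2.05% of all probe sets were called the same way in all 4.

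IFT54, which overlaps 1 end of su(Hw), did not pass the test. It read 135, 104 and 171 units in 2/v, 113, 136 and 95.7 units in A2663/2, 177, 124 and 82.2 units in BL15598, and 192, 158 and 172 units in Canton S, with all genotypes but Canton S and A2663/2 overlapping. Its change null against wild type was log2 -0.24 (adjusted p = 0.522). The neighbours aus and bap of mod(mdg4), Zip88E, which overlaps Cp190, CG14864 and CG4338 beside Cp190, and trx beside su(Hw) were not called, with changes of log2 -0.35 to 0.25. CG4338 was called in A2663/2 against BL15598 (log2 0.58, adjusted p = 0.0481), where BL15598 was the low stock.

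Lastly, genes were ranked by how closely their log2 signals, centred on their own mean, followed each member over the 12 arrays, as a root mean square difference among 12798 probe sets above the control level. Nearest to su(Hw) were CG4712 (0.782 log2 units), lncRNA:CR40465 (0.794), OS9 (0.87), Zip102B (0.946) and CG9917 (0.977). All 5 were chosen for this likeness, so their levels are a description. OS9 read 42.7, 15.8 and 8.62 units in 2/v, 50.2, 29.8 and 20.5 units in A2663/2, 746, 627 and 428 units in BL15598, and 212, 346 and 291 units in Canton S. Its low level in both nulls follows from how it was chosen, and 2 of its arrays lay under the control median. Its BL15598 arrays lay above its Canton S arrays, as for su(Hw), where that difference did not pass the test. By geometric mean CG4712 was also higher in BL15598 than in Canton S, while lncRNA:CR40465, Zip102B and CG9917 were lower. Nearest to 1631833_at of mod(mdg4) were Scsalpha1 (0.046), Cnot4 (0.067) and Uch-L5R (0.068), and nearest to Cp190 were Ide (0.093), Usp47 (0.098) and CG11970 (0.1). None of these 6 was called null against wild type (adjusted p of 0.503 to 0.986).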

How the data were processed

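The authors deposited 1 linear intensity per probe set and array. Per the submitters' processing notes Partek 6.5 and RMA were used, yet the trimmed mean (2% off each end) is 1500.03 on all arrays, so how they were scaled is not settled. Per the labels' protocols, 50 ng of RNA was amplified and biotin-labelled. Intensities were turned into log2 without an offset. The 183 controls were left out, and no array was. For arrays, their number limits the precision.

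Of 18769 probe sets, 13647 had 1 symbol, 402 several and 4720 none, after updating symbols from RefSeq. One limma fit (3.58.1, R 4.3.3) of the 4 genotypes, moderated by empirical Bayes from 8 residual degrees of freedom, gave two-sided p-values, which were adjusted by the Benjamini-Hochberg method over all probe sets. Every adjusted p is from this limma fit unless an exact test is named. The fit and the permutation test were tested on simulated data.

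The members and gene lists were chosen with earlier results of these data known. Named besides all member probe sets are the neighbours, ct and f, the 5 genes most like su(Hw) and 3 most like each other member, and up to 6 and 4 genes of the 2 lists by adjusted p; a gene of a list is its brightest probe set. Entries that share a sequence with other genes, overlapping genes and strand could not be checked. Alternatives were median centring, quantile normalization, an offset of 16, 2 filters on dim probe sets, a trended robust prior, array weights, the replicate block, the compared arrays alone, 2 groups of 6 arrays, another denominator and leaving out each array.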

Additional observations from a re-analysis of the deposited data

How the results depend on the processing

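Null against wild type, 7 members were called, and 6 to 8 on leaving out each array. Apart from 1637723_at, each of the 7 kept its call under every alternative in which it was tested; 1622976_at is not above the median signal. Counts of called members in other comparisons moved more. In 2/v against Canton S 7 became 4 under centring, 4 under quantile normalization, 3 with the compared arrays alone and 3 to 7 on leaving out 1 array, with 3 without 2/v replicate 1 and 4 without 2/v replicate 2 or 3, A2663/2 replicate 1 or Canton S replicate 2. In A2663/2 against Canton S 2 became 5 under centring, quantile normalization, the offset or array weights, 6 above the median control or with the trended robust prior, and 4 with probe sets above the median signal alone, while leaving out 1 array gave 2 to 4, with 4 without Canton S replicate 3. In A2663/2 against BL15598 4 became 2 without A2663/2 replicate 1 or 3, and otherwise leaving out 1 array gave up to 4. In BL15598 against Canton S 0 became 3 with probe sets above the median signal alone, 1 with array weights, 1 with the compared arrays alone, and 0 to 1 on leaving out 1 array (1 without Canton S replicate 3, A2663/2 replicate 1 or 2, or 2/v replicate 1). For the difference of null effects 0 became 1 with probe sets above the median signal alone and 0 to 1 on leaving out 1 array (1 without Canton S replicate 3 or BL15598 replicate 1). The compared arrays alone are fewer samples and the filters test fewer probe sets; the cause of the other moves was not tested. The log2 ratio of 1631742_s_at was 0.02 over 1631833_at and -0.268 over the median of all mod(mdg4) probe sets (adjusted p = 0.0159), and that of 1631833_at to Cp190 ran from -0.122 to 0.024 on leaving out 1 array.

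Over all probe sets, 2528 calls null against wild type became 1401 with 2 groups of 6 arrays. With the compared arrays alone, 1281 became 655 in A2663/2 against BL15598, 1729 became 1134 in A2663/2 against Canton S, 1997 became 1077 in 2/v against BL15598, 174 became 85 in 2/v against A2663/2 and 1799 became 715 in BL15598 against Canton S. Array weights gave 1958 in A2663/2 against BL15598, 318 in 2/v against A2663/2 and 1197 for the difference of null effects, where the trended robust prior gave 1152, against 763. On leaving out 1 array the lowest counts in these were 798, 1121, 1328, 92 and 500 for A2663/2 against BL15598, A2663/2 against Canton S, 2/v against BL15598, 2/v against A2663/2 and the difference of null effects.

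Deviations of same-numbered arrays had correlations of -0.037 to 0.093 over 18 pairs, with a median of 0.017. For 36 pairs of different numbers they were -0.1 to 0.06, with a median of -0.013. All were weak and the ranges overlapped, with the same-numbered pairs slightly higher. Whether same-numbered arrays were processed together was not tested. With the replicate block, 4 members were called in A2663/2 against Canton S, against 2 without it, 1637723_at was added in 2/v against Canton S (adjusted p = 0.0422), the calls of 1627953_at in A2663/2 against BL15598 (adjusted p = 0.0684) and of 1636765_at in 2/v against Canton S (adjusted p = 0.0506) were lost, and the members called null against wild type were the same 7.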
